A study of Mus musculus with 2 samples.

Results

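Effector and tissue regulatory T cells (Tregs) are set apart from resting Tregs by a group of transcription factors, and 10 of these genes were examined: Batf, Irf4, Prdm1, Maf, Rora, Pparg, Nfil3, Id2, Bhlhe40 and Bach2. They were chosen by symbol, as factors known to drive effector and tissue Treg differentiation or, for Bach2, to restrain it. All 10 were found among the 22911 genes that the array probes name. The RNA came from mouse kidney Tregs on day 28 of cGN, a glomerulonephritis induced with an antibody to the basement membrane of the glomerulus (anti-GBM). The cells had been sorted as CD45+CD3e+CD4+ cells carrying FoxP3-hCD2, a reporter that displays human CD2 on cells with an active Foxp3 gene. Cy3-labelled total RNA was hybridised to 2 single-colour Agilent arrays, 1 for anti-GBM lot I and 1 for lot M, and the severity of disease differed between antibody lots per the labels. Both groups share the induction of cGN, the tissue, the day and the reporter. Strain, sex, age and number of mice were not given in the sources used here, and no array of healthy kidney or of Tregs from another organ was analysed here.

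The sources assign the arrays to the lots in opposite ways. Array 1 stands under lot I in the scanner output, but its values stand under lot M in the deposited value table, and array 2 is exchanged likewise. Over 13576 probes, log2 of the scanner signal of array 1 over the tabulated value had an SD of 0.000183 in the column labelled lot M and of 0.153 in that labelled lot I. The arrays are therefore called by number. Every difference below is a log2 value of array 2 minus that of array 1. By the scanner output this sets lot M against lot I, and by the value table lot I against lot M. With 1 array per lot, no test was possible. A level is log2 of the processed signal over the array's 75th percentile, so that 0 is that percentile itself, a signal of 286 on array 1 and 279.5 on array 2. The error beside a difference is the scanner's spot error, which covers neither mice nor labelling reactions nor lots. For bright probes it was nearly constant, 0.20 for 1 probe (as for Batf) and 0.14 for the mean of 2 (as for Rora). Whether a difference exceeds it thus depends also on the number of probes. The lowest levels that the scanner called well above background were -4.62 and -4.58.

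Treg differentiation in tissues proceeds in steps. T cell receptor signals induce Irf4 and Batf, which bind DNA together at composite sites and open the effector programme; Irf4 in turn is needed for Prdm1, which encodes the repressor Blimp-1. Maf, Rora, Pparg, Id2, Nfil3 and Bhlhe40 then shape what the cell does in its tissue, among them cytokine genes, lipid uptake and residence. Bach2 competes with AP-1 proteins for the same sites and holds T cells in a resting state.

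Several of these factors have known recognition motifs, and the promoters of the 10 genes, each factor's own included, were searched for them in windows from 250 bases before to 50 bases after each gene's start (RefSeq, build GRCm38.p6). Windows were held for 8 of the 10 genes, 10 windows in all, and both strands were read. The windows below are the ones in which a motif of one of the 10 factors lay wholly before the start. The 100 bases before the start are shown 5′ to 3′ on the gene's strand, with the motif in capitals.
Prdm1, chr10:44458749-44458848, minus strand, AP-1 motif: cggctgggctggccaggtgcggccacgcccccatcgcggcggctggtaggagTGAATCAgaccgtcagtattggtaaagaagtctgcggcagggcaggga
Nfil3, chr13:52981040-52981139, minus strand, nuclear receptor half-site: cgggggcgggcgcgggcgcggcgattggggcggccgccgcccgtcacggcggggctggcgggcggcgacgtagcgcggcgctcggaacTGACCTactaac
Pparg, chr6:115361044-115361143, plus strand, nuclear receptor half-site: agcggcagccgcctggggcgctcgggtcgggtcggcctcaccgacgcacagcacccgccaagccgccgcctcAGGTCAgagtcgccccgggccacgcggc
Pparg, chr6:115362249-115362348, plus strand, nuclear receptor half-site: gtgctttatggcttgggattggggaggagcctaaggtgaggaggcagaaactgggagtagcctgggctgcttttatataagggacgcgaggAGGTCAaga
The AP-1 motif searched for was TGANTCA, a loose form in which N is any base. Batf binds AP-1 sites with Jun proteins, and Bach2 competes for them. In Prdm1 the match was TGAATCA, with A as the middle base, and it began 48 bases before the start. The motif, with any base at N, occurred in 7.81% of all 32851 windows, and Prdm1 was the 1 member with it. The half-site AGGTCA, recognised by Ror and Ppar receptors, was found in 16.3% of all windows. In Nfil3 it lies on the opposite strand and reads TGACCT. A motif shared by sites of Irf4 and Blimp-1 (GAAAGTGA, 1.47% of windows) lay across the start of Irf4. The E-box CACGTG of Bhlhe40 (7.15%) and the Nfil3 motif TTANGTAA (2.32%) were in none of the 10 windows. These matches are descriptions of sequence, and no binding was measured.

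All 10 factors were expressed above background on both arrays, and none differed between them by 2-fold, or by 1.5-fold. Of all 13743 named genes measured on both arrays, 1.43% differed by 2-fold or more and 5.97% by 1.5-fold or more. The differences of the factors ran from -0.26 for Rora to 0.22 for Irf4, so the largest fold between the arrays was 1.20. Their median was 0.06, beside 0.01 over all genes, and 7 were higher and 3 lower on array 2. Of all genes, 53.8% were higher on array 2. The split of the factors became 5 and 5 when the arrays were scaled by spike-in controls, which lowers every difference by 0.06. The median size of a difference, whatever its sign, was 0.11 for the factors and 0.10 over all genes. It was 0.07 over the 7793 genes whose mean level lay above the 75th percentile. Of the 10 factors, 9 lay above that percentile on both arrays. Irf4, Prdm1 and Rora exceeded their spot error, 3 of 10, close to the 28.6% of all genes that did the same. Since only the RNA of the whole sorted sample was measured, a change in the number of cells that express a factor and a change in RNA per cell cannot be told apart.

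**Figure D1:**
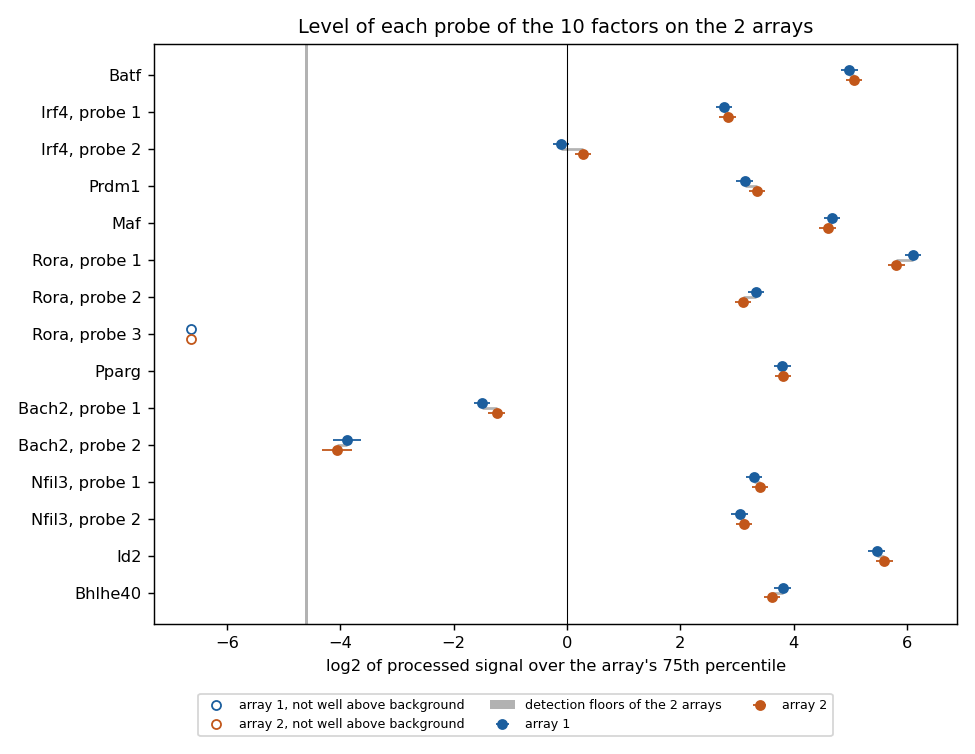
Levels of the 15 probes of the 10 factors, as log2 of processed signal over the array's 75th percentile, with the scanner's spot error as bars. The 2 arrays lie close together at each probe. Both Bach2 probes lie below 0 and 1 Rora probe is on neither array well above background; levels of different probes are not comparable.

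Batf and Irf4, the pair that opens the effector programme, were both detected. Batf, a bZIP factor that pairs with Jun proteins and is required for Tregs to accumulate in tissues, had a processed signal of 9027 on array 1 and 9339 on array 2, levels of 4.98 and 5.06. The difference of 0.08 ± 0.20 was smaller than the spot error. Irf4, which encodes an interferon regulatory factor induced in proportion to T cell receptor signal, was read by 2 probes. The first had signals of 1947 and 1991 and differed by 0.06 ± 0.20. The second was dimmer, with signals of 266 and 339, and differed by 0.38 ± 0.20. Both Irf4 probes were thus higher on array 2 but by unequal amounts, although the files name the same transcript, NM_013674, for both. Their mean difference was 0.22 ± 0.14, and a difference of at least that size was seen in 23.7% of all genes. The mean rests mostly on the dimmer probe, and with the brightest probe alone it was 0.06.

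The proteins that share DNA sites with Batf and Irf4 were measured as well. Of 10 genes for AP-1 and IRF partners, 9 were well above background on both arrays, and 0 differed by 1.5-fold, with a median of -0.07. Junb (0.08 ± 0.14) and Batf3 (0.09 ± 0.21) had the highest differences, where Junb is a main partner of Batf in Tregs. The AP-1 genes Fosb (-0.33 ± 0.20) and Fos (-0.31 ± 0.20), which are induced early after stimulation of a cell, had the lowest. These were also the 2 of the list whose difference exceeded the spot error. Fosl1 was on neither array well above background.

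Prdm1, which encodes Blimp-1, the repressor that marks effector Tregs and allows them to make interleukin 10, was read by 1 probe. Its signal was 2504 on array 1 and 2849 on array 2, and the difference of 0.22 ± 0.20 was just over 1 spot error. It stayed above 0 under 11 other settings, from 0.14 to 0.22. Other filters, flags and probe choices leave the value of a single probe unchanged, so several of these settings could not move it. Il10, itself a gene that depends on Blimp-1 in Tregs, lay the other way at -0.31 ± 0.20, with levels of 2.09 and 1.78.

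Irf4, Prdm1 and Bach2 are also expressed in B and plasma cells, so markers of these were examined. Of 10 such markers, 7 were measured on both arrays. Their median difference was 0.09, or -0.28 without the filter on dim probes. Their summed level was 3.01 on array 1 and 2.82 on array 2. The B cell factor Ebf1 was on neither array well above background, and Pax5 and Blk only on array 1. Cd79b, a chain of the B cell receptor complex, had levels of 2.56 and 2.26, a difference of -0.31 ± 0.20, and was named after its values were seen. The B cell genes Ms4a1 (-0.39 ± 0.24) and Cd79a (-0.33 ± 0.41) had the lowest differences of the list. The plasma cell genes Sdc1 (0.38 ± 0.17) and Mzb1 (0.32 ± 0.30) had the highest, at dim levels of -3.54 and -3.16 for Sdc1 and -3.71 and -3.40 for Mzb1. Jchain, another plasma cell gene, was brighter, with levels of 0.75 and 0.84 and a difference of 0.09 ± 0.20. It was named after its values were seen. Dendritic cells use Irf4 and Batf3 too, and 9 of 10 of their markers were measured, with a median of 0.05 and summed levels of 6.78 and 6.82. These sums rest mostly on Cd74 and H2-Ab1, with levels of 5.99 and 5.34 on array 1. The next highest level there was that of Ccr7, at 1.33. Flt3, Zbtb46 and Clec9a were dim on that array, at -1.87, -3.06 and -3.77. Cd74, H2-Ab1 and Ccr7 were named after their values were seen. Xcr1 was well above background on array 1 only. The part of these cells in the signals of Irf4, Prdm1 and Bach2 was not tested.

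Maf, the large Maf factor that promotes interleukin 10 and is used by effector Tregs, had signals of 7288 and 6758 (levels 4.67 and 4.60). Its difference of -0.08 ± 0.20 lay within the spot error. The related Bach and Maf genes differed little: 8 of 9 were measured on both arrays, 0 differed by 1.5-fold, and the median was -0.0014. Maff, a small Maf protein that pairs with Bach and CNC factors, had the highest difference (0.30 ± 0.21) and Nfe2 the lowest (-0.12 ± 0.22). Next to them came Nfe2l1 (0.14 ± 0.15) and Mafg (-0.09 ± 0.20), the latter another small Maf partner. Nrl was on neither array well above background.

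Rora had the largest difference of the 10 and was the 1 factor lower on array 2 by more than its spot error. It encodes a nuclear receptor that Tregs of skin and other tissues use, and that restrains type 2 inflammation there. One probe had signals of 19579 on array 1 and 15682 on array 2, a difference of -0.29 ± 0.20. Another had signals of 2881 and 2398, a difference of -0.23 ± 0.20. Both probes were lower on array 2, by similar amounts, and both are assigned to transcript NM_013646. The remaining probe, assigned to NM_001289917, was on neither array well above background, with signals of 2.86 and 2.82. RefSeq lists 9 transcripts of Rora, and where the probes lie within them was not analysed here.

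The mean of the measured Rora probes was -0.26 ± 0.14, or 1.20-fold. A difference of at least this size was seen in 19.6% of all genes and in 7.12% of the 7793 genes whose mean level lay above the 75th percentile. It ranged from -0.32 to -0.17 under the other settings, the latter when the undetected probe was averaged in. Tnfrsf25, which encodes the receptor DR3 on tissue Tregs, differed by 0.10 ± 0.20.

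Pparg, a lipid-sensing nuclear receptor best known from fat Tregs but also expressed in Tregs of other tissues, was nearly the same on both arrays. Its signal was 3976 on array 1 and 3916 on array 2, and after scaling the difference was 0.0088 ± 0.20. Among 11 other settings, so small a value became 0.0 when scaled by the median of named genes. It turned below 0 with normexp background correction, scaling by spike-ins, no scaling and quantile normalisation. Of 9 nuclear receptor genes, 8 had a named probe and 7 were measured on both arrays, with a median of 0.02 and 0 past 1.5-fold. Ppara, a receptor that drives fatty acid oxidation in tubule and liver, had the highest difference at 0.57 ± 0.21 and a low level (-2.03 and -1.47). Rxrb, a partner receptor of Pparg, differed by 0.17 ± 0.12, and Nr1d1, a clock receptor that opposes Rora at shared sites, by -0.07 ± 0.21. Rxrg was on neither array well above background.

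Genes of lipid handling, several of them Pparg targets, were higher on array 2 in 8 of 9 measured members, beside 53.8% of all genes. Their median was 0.19. Of the 9, 1 passed 2-fold, Pdk4, a switch of fuel use in mitochondria, with levels of -4.28 and -2.61 and a difference of 1.67 ± 0.33. Plin2, the coat protein of lipid droplets, differed by 0.36 ± 0.15, while Fabp4 (0.02 ± 0.19) and Dgat1 (-0.10 ± 0.20) had the lowest differences. Scd1 was well above background on array 2 only. Markers of the proximal tubule moved the same way: all 12 were well above background on both arrays, 11 were higher on array 2 and 9 by 2-fold or more, beside 1.34% of all genes. Their median was 1.16 and their summed level 6.43 on array 1 and 7.47 on array 2. The part of tubular RNA in the lipid genes and in Ppara was not tested.

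Macrophages express Maf and Pparg, and their markers were examined for that reason. All 12 were measured on both arrays and were higher on array 2, beside 53.8% of all genes. Their median was 0.30 and their summed levels were 5.07 and 5.42. Adgre1, a surface marker of macrophages, and the complement gene C1qc differed by 0.46 ± 0.20 and 0.42 ± 0.20, and Mrc1, at 0.0074 ± 0.21, and Cx3cr1, at 0.04 ± 0.15, turned below 0 with spike-in scaling. The differences of Maf and Pparg were -0.08 and 0.0088. Fat cells express Pparg as well. Of 6 adipocyte markers, Adipoq, Plin1, Cidec and Retn were on neither array well above background, and Fabp4 and Lep were dim, with a summed level of -2.04 and -1.99. The part of macrophages, or of other cells, in the signals of Maf and Pparg was not tested.

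**Figure D2:**
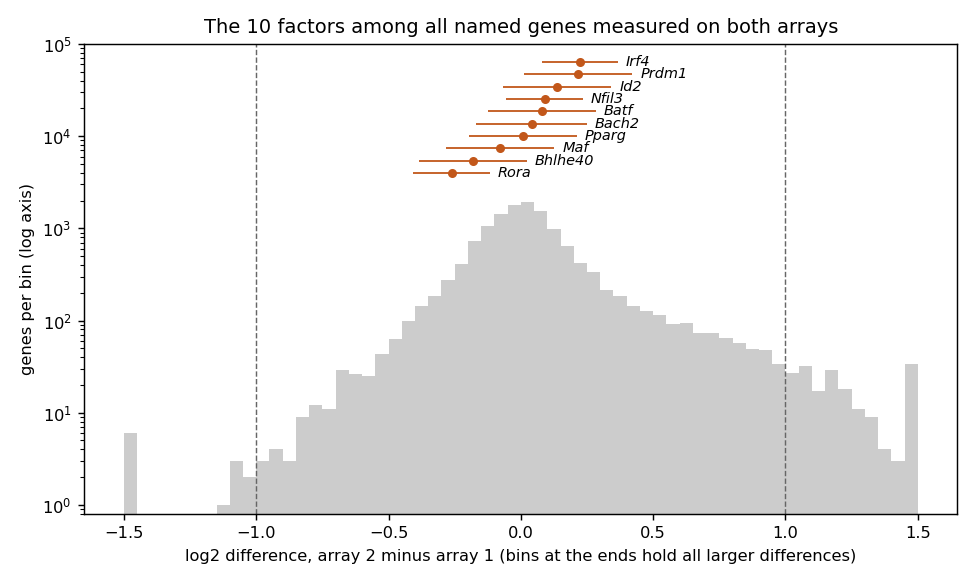
Grey bars count all 13743 named genes by log2 difference between the arrays, on a log axis. Points are the 10 factors with their spot error, placed above the bars in order of difference; their height has no meaning. All 10 lie between -0.26 and 0.22, inside the dashed lines at 2-fold.

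Nfil3, a bZIP repressor needed for innate lymphoid cells and found in effector Tregs, was read by 2 probes that differed from each other by less than the spot error. One probe had signals of 2806 and 2953 and a difference of 0.11 ± 0.20, and the other 2358 and 2430, with a difference of 0.07 ± 0.20. The mean of 0.09 ± 0.14 did not exceed the spot error. Id2, which encodes an inhibitor that binds E proteins without contacting DNA and supports the upkeep of effector and tissue Tregs, had signals of 12596 and 13562. Its levels of 5.46 and 5.60 gave a difference of 0.14 ± 0.20, also within the error.

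Id2 acts together with Id3 against the E proteins Tcf3, Tcf4 and Tcf12, so these were read beside it. Of 6 genes, 5 were measured on both arrays with a median of 0.03, and 0 passed 1.5-fold. Id3, which is higher in resting than in effector Tregs, had the highest difference at 0.34 ± 0.20, with levels of 0.48 and 0.82. Tcf4 followed at 0.25 ± 0.15, while Id1 (-0.12 ± 0.23) and Tcf12 (-0.02 ± 0.14) had the lowest. Id4 was well above background on array 2 only. Id2 and Id3 were therefore both higher on array 2, of which Id3 alone exceeded its spot error.

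Bhlhe40, a bHLH repressor that sustains cytokine production and residence of T cells in tissue, had signals of 3990 and 3441. Its levels of 3.80 and 3.62 gave a difference of -0.18 ± 0.20, within the spot error. The difference was below 0 under 11 other settings (-0.24 to -0.18), several of which cannot change the value of a single probe. Its paralogue and the clock genes that Bhlhe40 and Nfil3 oppose differed little, with 6 of 6 measured, a median of 0.03 and 0 past 1.5-fold. Bhlhe41, the paralogue, was dim at -4.11 and -3.96 (difference 0.15 ± 0.37), and Clock differed by 0.04 ± 0.15. Hlf, an activator at the sites where Nfil3 represses, had the lowest difference at -0.33 ± 0.20, followed by Tef at -0.03 ± 0.14.

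Rora, Id2 and Nfil3 are also abundant in natural killer and innate lymphoid cells. Of 8 markers of these cells, 7 were measured on both arrays, with a median of 0.06 and summed levels of 2.27 and 2.53. These sums rest mostly on Gzma, with levels of 1.70 and 1.94 and a difference of 0.25 ± 0.20. Gzma was named after its values were seen. The natural killer receptor gene Ncr1 was on neither array well above background. Klra8 (1.92 ± 0.27) and Eomes (1.19 ± 0.26) differed by 2-fold or more, each from 1 measured probe and at levels from -3.56 to -1.64. The lowest were Klrb1c, which encodes NK1.1 (-0.24 ± 0.35), and Prf1 (-0.09 ± 0.21). The part of these cells in the signals of Rora, Id2 and Nfil3 was not tested.

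Bach2, the restrainer among the 10, was dim on both arrays, and it was the 1 factor of the 4 with 2 measured probes whose probes pointed in opposite directions. It encodes a repressor that keeps T cells from effector fate and is lost as Tregs activate. One probe had signals of 101 on array 1 and 118 on array 2, which is 3.12 and 3.34 log2 units above the detection floors, and a difference of 0.26 ± 0.21. The other had signals of 19.4 and 16.8, only 0.73 and 0.52 above the floors, and a difference of -0.18 ± 0.36. For that probe the raw spot was 54 and 49 against a local background of 27 and 26. The mean of 0.04 ± 0.21 therefore gives no direction for Bach2, and it turned below 0 with spike-in scaling. Without the dimmer probe, under the stricter filter, it was 0.26. Probes of both signs were found in 39.0% of the 5125 genes with several measured probes.

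Bach2 is known to preserve resting and central T cell genes, and these were all measured. Of 12, 7 were higher and 5 lower on array 2, with a median of 0.07. Il7r, the interleukin 7 receptor of resting and memory T cells, was the highest at 0.50 ± 0.20 (levels 6.17 and 6.67), and Lef1, a factor of naive T cells, followed at 0.22 ± 0.20. Myb was the 1 gene past 1.5-fold, at -0.69 ± 0.21 with levels of -1.59 and -2.28, from 2 of its 3 probes. S1pr1, the receptor for exit from tissue, was next at -0.17 ± 0.20. Il7r is also expressed by innate lymphoid cells and conventional T cells, and the part of these in its signal was not tested.

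The genes that the effector factors are known to support were all expressed as well. All 16 effector and tissue Treg genes were measured on both arrays, 8 higher and 8 lower on array 2, with a median of -0.0038 and 0 past 1.5-fold. The highest differences were those of Tnfrsf25 and Tnfrsf9, the latter encoding the activation receptor 4-1BB (0.10 ± 0.14). The lowest were Il10 (-0.31 ± 0.20) and Cxcr6 (-0.30 ± 0.14), a receptor for retention in tissue. Of the 16 genes, 4 were lower on array 2 by more than their spot error and 0 were higher; over all genes these shares were 11.4% and 17.1%. The 4 were Il10, Cxcr6, Itgae and Gzmb, of which the last 2, at -0.27 ± 0.20 each, were named after their values were seen.

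Markers of the labelled cell type were detected throughout, and so were markers of other cells. All 8 Treg identity genes were measured on both arrays. Foxp3 had levels of 4.92 and 4.74, and the median difference of the list was -0.04, or 0.01 with the brightest probe. All 9 T cell identity genes with a named probe were detected, with a median of -0.02 and summed levels of 9.84 and 9.84. Of 10 markers of the distal nephron and collecting duct, 9 were measured, with a median of 0.42. On array 2, 8 of them were higher, beside 53.8% of all genes. By 2-fold or more, 2 were higher, Aqp2 (1.60 ± 0.21) and Pvalb (1.41 ± 0.22), beside 1.34% of all genes. Scnn1b was on neither array well above background. Endothelial markers had a median of 0.04 over 8 of 10 genes, which turned to -0.02 with spike-in scaling, and Tek and Tie1 were on neither array well above background. Of 8 fibroblast and mesangial markers, 3 were measured, Col1a1 (0.34 ± 0.07) and Col1a2 (0.40 ± 0.22) higher and Dcn (-0.41 ± 0.28) lower on array 2. Their median of 0.34 turned to -0.04 with another detection flag. Pdgfrb and Lum were on neither array well above background, Pdgfra and Postn on array 1 only, and Col3a1 on array 2 only.

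**Figure D3:**
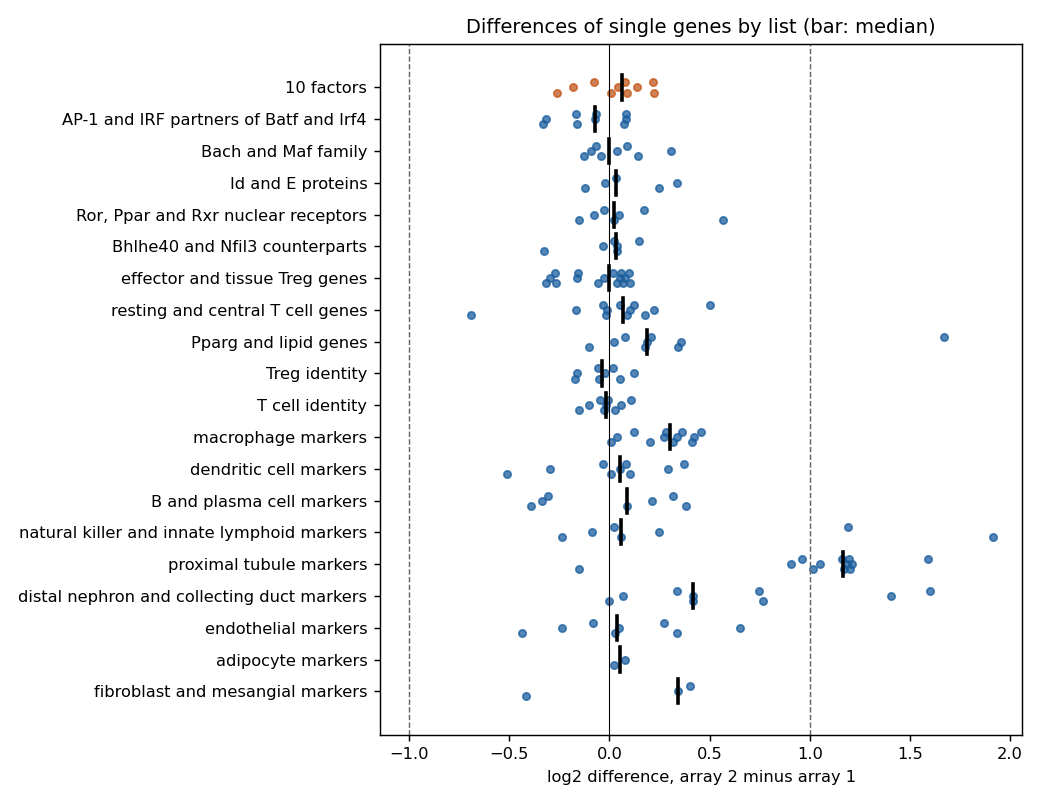
Each point is 1 gene measured on both arrays, placed by its log2 difference, array 2 minus array 1, and black bars are list medians. The 10 factors and their partner genes centre near 0, while 9 of 12 proximal tubule markers lie past the dashed 2-fold line.

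The differences of the factors moved little under other ways of processing the signals. Of 110 values, 10 factors under 11 other settings of the scanner output, 3 moved by more than 1 spot error: Irf4 with the brightest probe, and Bach2 with the brightest probe and with the stricter filter. Many of the 110 could not move that far. Other filters, flags and probe choices leave the 6 factors with 1 measured probe unchanged. Scaling by the median, by spike-ins or not at all shifts all differences alike, by at most 0.06. Batf, Irf4, Prdm1, Nfil3 and Id2 were above 0 and Maf, Rora and Bhlhe40 below 0 in all 11 settings, a limited check for the same reasons. Pparg and Bach2 had no stable sign. With the value table, whose columns carry the opposite lots, every sign turned, for example to 0.26 for Rora and -0.22 for Irf4.

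**Figure D4:**
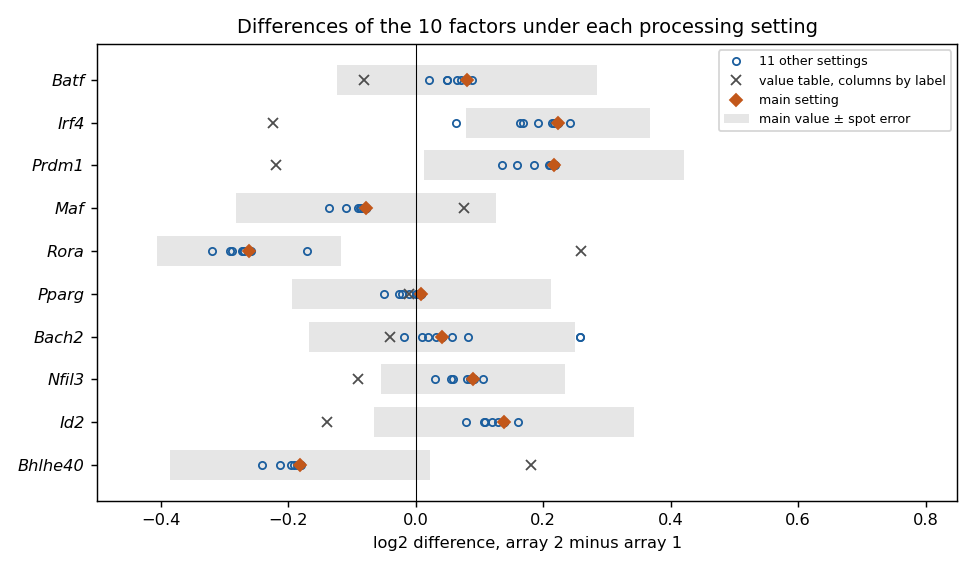
Log2 difference of each factor under the main setting (diamonds, grey band 1 spot error to each side), under 11 other settings of the scanner output (circles) and from the value table with its columns taken by their labels (crosses). The circles stay on 1 side of 0 for 8 factors, and the crosses lie on the other side.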

How the data were processed

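Total RNA of kidney Tregs was measured on 2 single-colour arrays. The submitters' processing notes and the headers name Agilent Feature Extraction 10.7.1.1 as the software that read the spots. The processed signal intensity of each spot was background-corrected and detrended within the array but not scaled between arrays, per the file headers. The deposited files also hold raw median intensities and other flags of 0 or 1 for detection, outliers and saturation. The deposited value table is a linear ratio (column medians 0.070 and 0.069). Its making was not given in the sources used here. Set against the scanner output, it is the signal over 1 constant per array (285 and 279), so scale and centring are known and direction is not.

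From the log2 signal of each probe, the array's 75th percentile over non-control probes was subtracted. Control spots (3671 of 62976) and outlier spots (75 and 56) were left out. Of 56605 probes, 32994 took 1 symbol from their accession through a RefSeq table (GRCm38.p6, names only, since the headers name another build). A gene's difference averages those of its probes that both arrays detected, and its error comes from the scanner's spot errors. The number of arrays limits the precision. The members and lists were chosen with earlier results of these data known. The text names all 10 factors and, per list, up to 2 genes with the highest and 2 with the lowest difference, those with probes but none well above background on both arrays, and others said to be named later or needed beside a factor. A gene that this rule names is not reported here. The alternatives tried were normexp background correction (limma 3.58.1, offset 50), 5 other scalings, other filters and flags, the brightest probe, outlier spots kept and the value table. The steps were tested on simulated data.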

Additional observations from a re-analysis of the deposited data

How the results depend on the processing

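All 10 factors were measured on both arrays under each of 12 alternatives, and 0 passed 2-fold under any of them, nor at a limit of 1.5-fold. The median of the factors, 0.06, was between 0.0015 (spike-in scaling) and 0.08 (stricter filter on dim probes) with the scanner output. It was -0.061 with the value table, whose columns carry the opposite lots, and the proximal tubule median became -1.17 there for the same reason. Of 209 list medians under the other settings, 15 moved by more than their spot error. The median of the fibroblast and mesangial markers, 0.34, became 0.14 with normexp, 0.17 with no filter and -0.04 with the looser detection flag. That of the B and plasma cell markers turned sign under other filters. That of the Bach and Maf genes turned with normexp, lowess centring or no filter. Why these turned was not tested. Several positive medians below 0.06 turned with spike-in scaling, which lowers every difference by 0.06. The number of genes past 2-fold was 196 with the main setting, 28 with normexp, 85 with the stricter filter, 669 with the looser detection flag and 1047 with no filter. No paired analysis was possible because each lot has 1 array, and no array could be left out. Spot errors near 0.20 limit what 1 probe can show, and the dimmer Bach2 probe, less than 1 log2 unit above the detection floor, bears little weight.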
